A study of Bos taurus with 4 samples.

Results

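A set of 6 genes of NF-kB signalling and cell death was followed in blood neutrophils of cows around calving. They were NFKB1, RELA, NFKBIE, BIRC3, CASP4 and SIVA1, 6 of the 444 genes that could be named on the array. They were listed by name, with earlier results of these data known, and found through the platform annotation with symbols updated by gene ID. No measured value enters that rule, but the choice of names was not blind to the values. Each was printed as 1 element of 3 consecutive spots, so the 6 genes had 6 of the 1296 elements, and all of their spots had a value on every array.

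Neutrophils were purified from the blood of parturient cows, and each RNA pool came from 4 cows. The 4 pools, 1 a day, were of day -7, day 0, day 0.25 and day 1, counted from parturition, and no other treatment or genotype is named. The pools were hybridised in pairs to 4 two-channel cDNA arrays, called A to D here. Array A held the day 0.25 pool in channel 1 and that of day -7 in channel 2. Array B held day 1 and day 0 in that order, array C held day -7 and day 1, and array D held day 0 and day 0.25. Each pool was thus on 2 arrays, and the arrays closed a loop. The sources used here do not say whether the same cows gave blood on every day. A difference between pools is also a difference between days only as far as 4 pooled cows stand for a day, because no day had a second pool.

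NF-kB is a dimeric transcription factor held in the cytoplasm by inhibitor proteins until an inflammatory signal leads to their degradation. NFKB1 encodes the precursor p105, which is processed to the subunit p50, and RELA encodes p65, the subunit that carries the transactivation domain of the classical dimer. NFKBIE encodes the inhibitor IkB epsilon, whose own gene is an NF-kB target. BIRC3 encodes a cellular inhibitor of apoptosis protein, a ubiquitin ligase in tumour necrosis factor receptor signalling and also an NF-kB target. CASP4 encodes an inflammatory caspase of the pathway that senses intracellular lipopolysaccharide and leads to pyroptosis, and SIVA1 encodes a pro-apoptotic protein that binds the receptor CD27. Neutrophils are short-lived cells that die by apoptosis unless inflammatory signals, many of which act through NF-kB, prolong their survival.

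The identity of the cells could hardly be followed on these arrays, since 0 of 25 neutrophil markers and 1 of 42 markers of other blood cells had a named element. That 1 was CD79B of the B cell receptor, with ratios of -0.0037, -0.0051, 0.022 and 0.012 in the order of the arrays above, none past the threshold. In pooled cells, fewer cells of a type and less RNA per cell cannot be told apart. The current bovine gene table lists BIRC2 as a synonym of the gene named BIRC3 here, and CASP13 as a synonym of CASP4.

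All values are log2 ratios centred on the median element of the array. The deposited ratios were narrow, from 0.574 to 1.53 before logarithms over all spots, and whether they are ratios of plain or of transformed intensities is not stated. The size of a value is therefore no measure of how far a transcript changed. The ratio of an array was read with channel 1 on top, which no source used here states, so values are called positive or negative and not higher or lower. The SD over the elements of an array was 0.046 for array A, 0.018 for array B, 0.032 for array C and 0.015 for array D.

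All 6 genes stood away from 0 on array A, which set the day 0.25 pool against that of day -7, and the 4 negative genes were both NF-kB subunits, the apoptosis inhibitor and the inflammatory caspase. The inhibitor NFKBIE and the pro-apoptotic SIVA1 were positive. On arrays B and D the same genes lay close to 0. On array C, NFKB1 stood apart from the other 5.

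NFKB1, the p50 precursor, had spot values of -0.063, -0.088 and -0.098 on array A, with a mean of -0.083. On array C its spots read -0.044, -0.13 and -0.11, with a mean of -0.093. All 6 of these spots were negative. On array B they were 0.004, -0.053 and -0.012, and on array D they were -0.016, 0.022 and 0.0094, so both of these arrays held spots of either sign. NFKB1 was the only one of the 6 genes whose mean was negative on both arrays that carried the day -7 pool, although that pool was in channel 2 of the first and in channel 1 of the other.

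RELA, the transactivating p65 subunit, had spots of -0.068, -0.063 and -0.13 on array A, with a mean of -0.086. On array C its spots were 0.040, 0.019 and 0.041, with a mean of 0.033. RELA was thus negative on the array with day -7 in channel 2 and positive on the one with day -7 in channel 1. Its spots were -0.008, -0.0048 and -0.0082 on array B, and 0.0034, -0.0011 and 0.0046 on array D. Those spots lay close together, with an SD at percentile 5.32 of all elements on array B and at percentile 14 on array D.

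NFKBIE, the inhibitor, read 0.18, 0.005 and 0.054 on array A, so its mean of 0.081 came mostly from the first spot. Without that spot the mean was 0.029. On array C its spots were 0.033, 0.018 and 0.027, with a mean of 0.026. It read -0.013, -0.0002 and 0.0058 on array B, and -0.0077, 0.0004 and -0.0006 on array D. NFKBIE was positive on both arrays of the day -7 pool, in either channel.

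BIRC3, the inhibitor of apoptosis, had spots of -0.084, -0.040 and -0.070 on array A, with a mean of -0.065. On array C they were 0.0092, 0.012 and 0.016, with a mean of 0.012. Its remaining spots were -0.014, 0.0054 and 0.011 on array B, and 0.012, 0.0024 and -0.0083 on array D. BIRC3 had the signs of RELA on both arrays of the day -7 pool, at smaller values.

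CASP4, the inflammatory caspase, had the most negative mean of the 6 on array A, at -0.14 from spots of -0.086, -0.20 and -0.12. On array C its spots were 0.0095, 0.012 and 0.018. They were -0.0012, 0.0014 and 0.0002 on array B, and -0.0038, -0.0034 and -0.0016 on array D. On arrays B and D the 3 spots of CASP4 were among the tightest of all elements, with a spot SD at percentile 2.16 and 2.39, while on array A it was at percentile 82.

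SIVA1, the pro-apoptotic protein, was the most positive of the 6 on array A, with spots of 0.091, 0.11 and 0.19 and a mean of 0.13. On array C its spots did not agree in sign, at -0.022, 0.057 and -0.022. They read 0.0083, 0.0071 and 0.011 on array B, and 0, -0.029 and 0.011 on array D. The second spot was thus the one that stood away from the others on 2 of the 4 arrays.

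**Figure D1:**
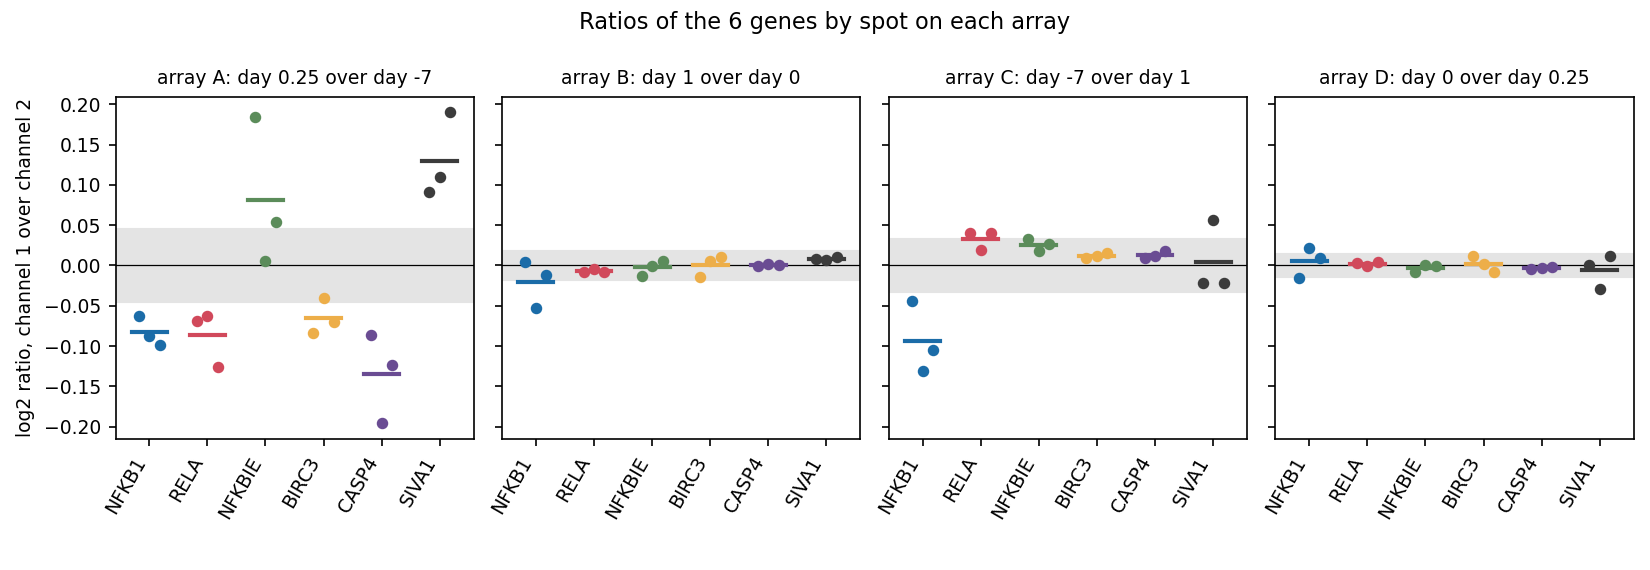
Log2 ratios (vertical axis) of the 6 genes on the 4 arrays, with a point for each of the 3 spots, a bar for their mean and a grey band of 1 SD over all elements of the array on either side of 0. All 18 spots of array A share the sign of their gene's mean, from -0.20 for a spot of CASP4 to 0.19 for one of SIVA1, while on array D all 6 means lie inside the band.

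Against all elements, the 6 genes were far out on 1 array and ordinary on most of the others. On array A all 6 means lay farther from 0 than the SD over elements, as did 21.1% of all elements. This is a description and no test, because the 6 were named with earlier results known. Of the 8 further genes of these pathways on the array, 3 lay that far out on array A. On array B that held for 1 gene, NFKB1, against 25.6% of elements, on array C for NFKB1 and RELA against 23.7%, and on array D for none against 27.3%. The median distance from 0 was 0.084 for the 6 genes and 0.021 for all elements on array A. It was 0.019 for both on array C, and it was smaller for the 6 genes than for all elements on array B (0.0047 and 0.0096) and on array D (0.0028 and 0.0086). Array A was also the one with the widest spread over elements, and the part of that in the values of the 6 genes was not tested.

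Single genes can be placed in the same way. On array A, CASP4 was at percentile 1.31 of all elements, RELA at 3.86, NFKB1 at 4.09 and BIRC3 at 7.57, while NFKBIE was at 97.1 and SIVA1 at 99.2. On array C, NFKB1 was at percentile 1.47, RELA at 85.6 and NFKBIE at 79.3. The other 3 genes were near the middle there, at percentiles 56.1 to 65.3.

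**Figure D2:**
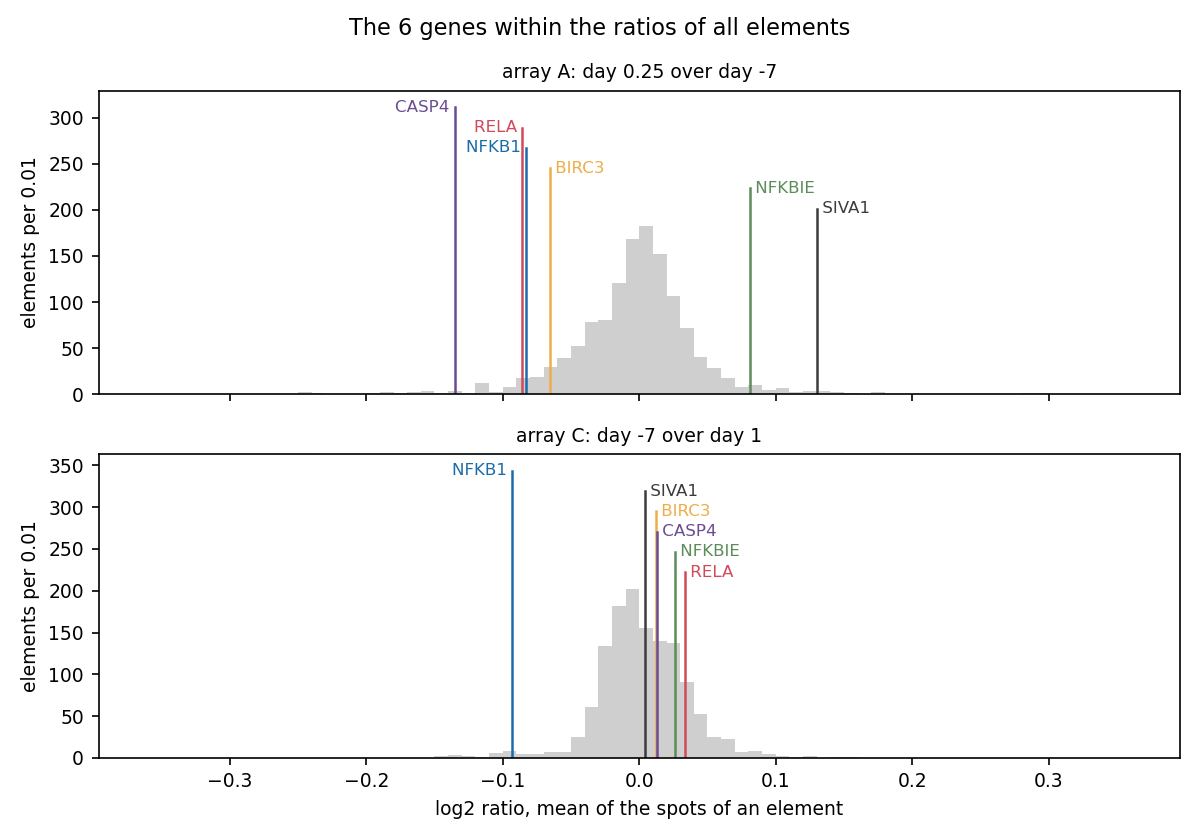
Histograms of the log2 ratios of all elements (horizontal axis; vertical axis, elements per 0.01) on array A and array C, with a line at the mean of each of the 6 genes. On the upper array the 6 lines fall in both flanks, from -0.14 for CASP4 to 0.13 for SIVA1, and on the lower array NFKB1 at -0.093 is the one far from the centre.

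The spots of an element also show whether a sign was repeated within an array. All 3 spots agreed in sign for 6 of the 6 genes on array A, where 48.9% of all elements with 3 spots did, and for 5 of 6 on array C, where 69.5% did. They agreed for 2 of 6, RELA and SIVA1, on array B (46.5% of elements) and for CASP4 alone on array D (49.1%). These counts are a description and no test as well, because the 6 were named with earlier results known.

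Each array was then tested on its own over the 3 spots of every element with limma, at a Benjamini-Hochberg adjusted p below 0.05. Such a test compares a ratio with the spread between spots of 1 array and holds no spread between arrays or cows. On array C, 3 of the 6 genes passed, where 42.2% of all elements did, so the count was near the share of the whole array. They were NFKB1 at -0.093 ± 0.020 (SE of 3 spots; limma adjusted p = 0.0357), NFKBIE at 0.026 ± 0.0045 (limma adjusted p = 0.0248) and RELA at 0.033 ± 0.0062 (limma adjusted p = 0.0295). Elements that passed on the negative side, as NFKB1 did, were 21.1% of all, and those on the positive side, as RELA and NFKBIE were, also 21.1%. BIRC3 and CASP4 did not pass there (limma adjusted p = 0.0609 and 0.061), nor did SIVA1 (0.879). With any 1 of the 3 spots left out no element passed on this array. With a running median over 27 neighbouring elements subtracted NFKBIE stood at 0.014 and did not pass (limma adjusted p = 0.114).

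On array A, where the values of the 6 genes were larger, none passed over the spots, and neither did any other element (0% of 1292). The spots of all elements were farther apart on this array, with a median SD of 0.024, against 0.0087 on array C. NFKB1, RELA, BIRC3, CASP4 and SIVA1 each had a limma adjusted p of 0.171 and NFKBIE of 0.353. At an unadjusted p below 0.05 there were 5 of the 6 genes, all but NFKBIE, against 19.6% of elements. On array C the same count was 5 of 6, all but SIVA1, against 52.7%. Set against all elements, these counts describe 6 genes named with earlier results known and test nothing. On array B no gene of the 6 passed (0.0772% of elements did), and none had an unadjusted p below 0.05 (19.6%). On array D likewise none passed (0%) and none had an unadjusted p below 0.05 (23.3%).

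The loop fit combined all 4 arrays into differences between pools for every element, with the error taken from the failure of the loop to close. In limma's F test, which asked whether the pools differed in any way, 0 of the 6 genes passed, where 0.541% of elements did. CASP4 had the lowest limma adjusted p (0.428; unadjusted p = 0.0182), followed by SIVA1 (0.603; unadjusted p = 0.0359) and RELA (0.668; unadjusted p = 0.0464). These 3 were below 0.05 unadjusted, against 7.18% of elements.

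For day 0.25 against day -7, the pool shortly after calving against that of a week before, none of the 6 genes passed, where 2.01% of elements did. CASP4 stood at -0.104 ± 0.027 (SE; limma adjusted p = 0.0758), SIVA1 at 0.096 ± 0.028 (limma adjusted p = 0.105) and RELA at -0.071 ± 0.023 (limma adjusted p = 0.149). BIRC3 stood at -0.052 ± 0.023 (limma adjusted p = 0.372), NFKBIE at 0.055 ± 0.025 (limma adjusted p = 0.409) and NFKB1 at -0.035 ± 0.033 (limma adjusted p = 0.772). At an unadjusted p below 0.05 were 5 of the 6, all but NFKB1, against 12.1% of elements. That count too is only a description, since the 6 were named with earlier results known. The median distance from 0 was 0.064 for the 6 genes and 0.019 for all elements, and the signed medians were -0.044 and -0.00064. With the 3 spots kept as replicates within each array, RELA and CASP4 passed (limma adjusted p = 0.033 and 0.0457). With the sign of array B turned, RELA, SIVA1 and CASP4 did (0.0282, 0.0088 and 0.00787). Other settings gave smaller values. With each array weighted by the inverse of its variance CASP4 stood at -0.0639 (limma adjusted p = 0.63), SIVA1 at 0.0519 (0.739), NFKBIE at 0.0229 (0.904) and NFKB1 at 0.0262 (0.913), the last with its sign changed. With the arrays scaled to equal SD, CASP4 stood at -0.0565 (limma adjusted p = 0.543), SIVA1 at 0.0518 (0.683), RELA at -0.040 (0.935), BIRC3 at -0.030 (1), NFKBIE at 0.0301 (1) and NFKB1 at -0.011 (1). With the median of the spots NFKBIE stood at 0.0326 (limma adjusted p = 0.697).

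For day 0 against day -7 no array compared the pools directly, and 0 of the 6 genes passed (0.309% of elements). CASP4 stood at -0.076 ± 0.031, RELA at -0.055 ± 0.027 and BIRC3 at -0.038 ± 0.026. On the positive side were SIVA1 at 0.056 ± 0.032, NFKBIE at 0.027 ± 0.029 and NFKB1 at 0.018 ± 0.038. The limma adjusted p ran from 0.743 for CASP4 to 0.993, and CASP4 was the 1 gene below 0.05 unadjusted (6.02% of elements were). The median distance from 0 was 0.046 for the 6 genes and 0.017 for all elements. With 1 array left out, these differences took either of 2 values. Without array A or without array D, CASP4 stood at -0.013, RELA at -0.0262, BIRC3 at -0.0129, SIVA1 at -0.013, NFKBIE at -0.0235 and NFKB1 at 0.114. Without array B or without array C, they were -0.138 for CASP4, -0.0835 for RELA, -0.0631 for BIRC3, 0.124 for SIVA1, 0.0783 for NFKBIE and -0.0779 for NFKB1. The values for day 0 thus depended on which side of the loop they were read along.

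For day 1 against day -7, 0 of the 6 genes passed (0.309% of elements), and none was below 0.05 unadjusted (5.64%). RELA stood at -0.048 ± 0.023, CASP4 at -0.044 ± 0.027, BIRC3 at -0.025 ± 0.023 and NFKBIE at -0.00042 ± 0.025. NFKB1 stood at 0.045 ± 0.033 and SIVA1 at 0.030 ± 0.028. The lowest limma adjusted p was 0.884, for RELA. Set in order, the fitted level of RELA, BIRC3 and CASP4 was most positive at day -7, then at day 1, day 0 and day 0.25, and that of SIVA1 ran the other way. NFKBIE had the order day 0.25, day 0, day -7 and day 1, and NFKB1 the order day 1, day 0, day -7 and day 0.25. No neighbours in these orders differed past the threshold. The orders are those with all arrays read channel 1 over channel 2. They changed with array A turned, and for all genes but BIRC3 with array A left out. Those of CASP4, BIRC3 and SIVA1 stayed the same with array B, C or D turned. That of RELA changed with array C turned, and that of NFKB1 with array B or C turned. That of NFKBIE changed with array B, C or D turned. With array A turned, CASP4 and BIRC3 had the order day 0.25, day 0, day 1 and day -7, RELA the order day 0.25, day 0, day -7 and day 1, and SIVA1 had day -7 first and day 0.25 last. Without array A the values of CASP4 for day 0, day 0.25 and day 1 were -0.013, -0.0101 and -0.0129, which is another order. With each array weighted by the inverse of its variance, the orders of RELA, NFKBIE and NFKB1 changed. RELA then stood at -0.0475, -0.0531 and -0.0496 for day 0, day 0.25 and day 1. The order of RELA also changed with the arrays scaled to equal SD. That of NFKBIE also changed without centring and with a running median subtracted. The 3 comparisons share the day -7 pool, so their values for a gene are not independent.

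**Figure D3:**
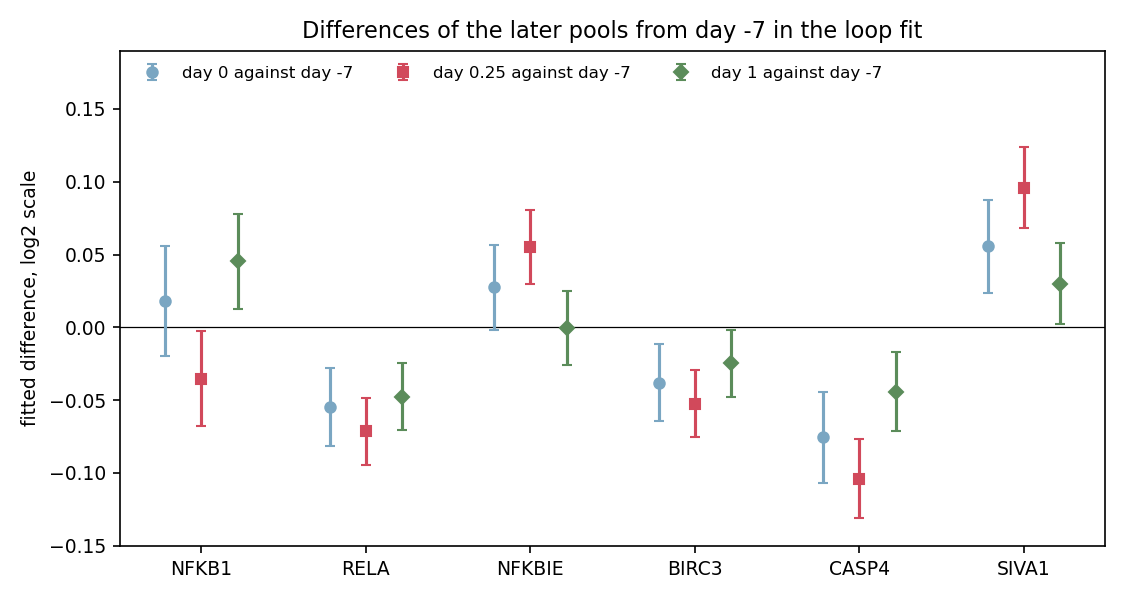
Fitted differences from day -7 (vertical axis, log2 scale) of the pools of day 0, day 0.25 and day 1 for the 6 genes, with bars of 1 SE of the loop fit. CASP4 at -0.104 and SIVA1 at 0.096 for day 0.25 lie farthest from 0, and none of the 18 differences passed the threshold.

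Between the later pools 0 of the 6 genes passed and 0% of elements did, for day 0.25 against day 0, day 1 against day 0 and day 1 against day 0.25. At an unadjusted p below 0.05 there was no gene of the 6 in any of them, and there were 0.309%, 0.463% and 3.24% of elements in the same order. The fitted differences of the 6 genes lay between -0.053 and 0.040 for day 0.25 against day 0, between -0.028 and 0.031 for day 1 against day 0, and between -0.066 and 0.081 for day 1 against day 0.25. The ends of the last range were SIVA1 and NFKB1.

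The loop allows each difference between neighbouring pools to be read along 2 routes, from its direct array and from the path through the other 3. The fit gives the direct array a weight of 0.75 and the path 0.25, and the path value is the one obtained with the direct array left out. For day 0.25 against day -7, CASP4 was -0.14 directly and -0.010 by the path, and BIRC3 was -0.065 and -0.015. RELA was -0.086 directly and -0.029 by the path. These 3 genes kept their sign by either route, with smaller values by the path.

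The other 3 did not keep their sign. SIVA1 was 0.13 directly and -0.0071 by the path, and NFKBIE was 0.081 and -0.021. NFKB1 was -0.083 directly and 0.11 by the path, and it was the 1 gene of the 6 with a larger value by the path. For all elements, 53.1% had the same sign by both routes, so 3 of 6 is near the share of the array as a whole.

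For day 1 against day -7, the direct array gave -0.033 for RELA, -0.012 for BIRC3 and -0.013 for CASP4, and the path gave -0.090, -0.062 and -0.14. The same 3 genes again kept their sign, where 43.9% of elements did. NFKB1 was 0.093 directly and -0.098 by the path, NFKBIE -0.026 and 0.076, and SIVA1 -0.0043 and 0.13. The path of this comparison runs through array A, so both comparisons rest on the same 4 values of a gene. For day 0.25 against day 0, 5 of the 6 genes kept their sign, where 41% of elements did, and the exception was CASP4 at 0.00294 directly and -0.122 by the path. The direct values of those 5 lay between -0.00524 and 0.00588. Each came from spots of either sign on array D, so their signs were not settled by the spots. For day 1 against day 0, NFKBIE, BIRC3 and CASP4 kept theirs, where 43.2% of elements did, while RELA was -0.00702 directly and 0.0502 by the path. The genes that kept their sign were thus not the same from 1 side of the loop to the next. BIRC3 was the 1 gene that kept it on all 4, and how many of all elements did so was not counted. The direct value of BIRC3 was only 0.000649 for day 1 against day 0 and -0.0019 for day 0.25 against day 0. Both came from spots of either sign, and leaving out 1 spot could turn them.

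**Figure D4:**
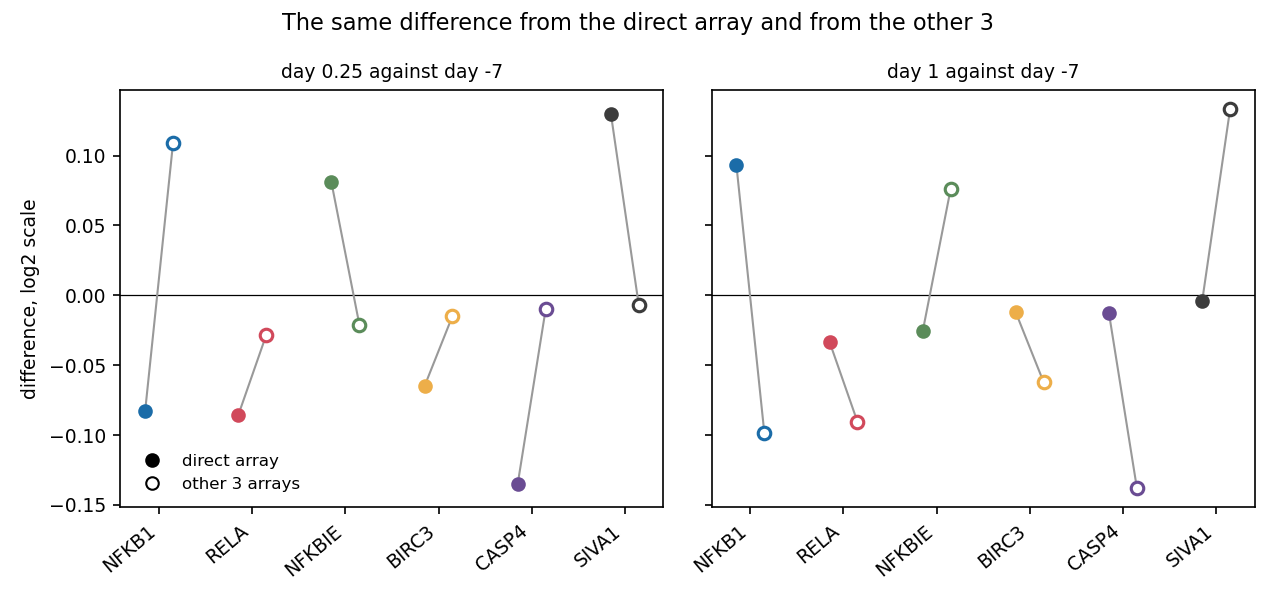
The difference from day -7 (vertical axis, log2 scale) of the day 0.25 and day 1 pools for each gene, from the direct array (filled) and from the other 3 arrays (open), joined by a line. RELA, BIRC3 and CASP4 stay below 0 by both routes, while NFKB1 moves from -0.083 to 0.11 and SIVA1 from 0.13 to -0.0071 for day 0.25.

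The sum of the 4 ratios around the loop is 0 for a gene when all arrays run the same way and noise and channel bias are absent. It was -0.050 for BIRC3 and -0.057 for RELA, inside the SD of 0.061 over elements. It was 0.10 for NFKBIE, -0.13 for CASP4 and 0.14 for SIVA1, and the sums of the latter 2 were close to their ratios on array A alone. NFKB1 had a sum of -0.19, and 10 of the 1295 elements, NFKB1 included, were at least that far from 0.

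The sums were also taken with the sign of 1 array turned, since no source used here states that the arrays run the same way. With array C turned the sum of NFKB1 was -0.0050, while that of RELA was -0.12, of BIRC3 -0.075 and of CASP4 -0.15. NFKBIE had 0.050 and SIVA1 0.13 with the same array turned. With array A turned the sums were -0.025 for NFKB1, 0.11 for RELA, 0.080 for BIRC3, 0.14 for CASP4, -0.060 for NFKBIE and -0.12 for SIVA1. No turn of a single array, those of the other 2 included, brought all 6 genes closer to 0.

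Few partners of these genes could be followed. Of 70 further genes of the NF-kB pathway, 4 had a named element: IRAK4, a kinase of Toll-like and interleukin-1 receptor signalling, the receptor IL1R1, the adaptor TRAF1 and the paracaspase MALT1. None of the 4 passed in the loop fit, in any difference from day -7. For day 0.25 against day -7 they stood at -0.027 for IRAK4, -0.033 for TRAF1, -0.030 for IL1R1 and -0.0033 for MALT1, with a median of -0.029 beside -0.00064 for all elements. On array A the 3 spots of 0 of the 4 agreed in sign, where those of 48.9% of elements did. Over the spots of array C, 1 of the 4 passed, TRAF1 on the positive side (0.018, limma adjusted p = 0.0277), where 42.2% of all elements passed and 21.1% did so on that side.

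Of 91 further genes of apoptosis and cell death, 4 had a named element, and none passed in the loop fit. TMBIM1, of the family of Bax inhibitor motif proteins, stood at -0.065 for day 0.25 against day -7. LITAF, an endosomal protein induced by lipopolysaccharide, stood at 0.062, AVEN, an apoptosis inhibitor that binds Bcl-xL and Apaf-1, at -0.027, and the mitochondrial outer membrane channel VDAC3 at 0.015. Their median was -0.0060. Over the spots of array C, where 42.2% of all elements passed and 21.1% did so on the positive side, 3 of the 4 passed and all 3 were positive, VDAC3 at 0.065 (limma adjusted p = 0.0124), TMBIM1 at 0.040 (0.0137) and AVEN at 0.040 (0.0129). The fourth, LITAF, had -0.0088 and did not pass. On array A, TMBIM1 at -0.068, LITAF at 0.071 and VDAC3 at 0.050 were the 3 genes of both lists that lay farther from 0 than the SD over elements. Of the 4 cell death genes, VDAC3 alone had 3 spots that agreed in sign on array A, where 48.9% of elements did. No gene of either list passed over the spots of array A, B or D.

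The 4 ratios of a gene can be set against those of every other element as a distance, with each array divided by its SD over elements. RELA and BIRC3 were the nearest pair among the 6 genes, at a distance of 0.901, and 10 of the 1294 other elements lay nearer to RELA than BIRC3 did. RELA and CASP4 were at 1.36, with 4.4% of elements nearer to RELA, and NFKBIE and SIVA1 at 1.42, with 5.8% nearer to NFKBIE. BIRC3 and CASP4 were at 1.57, with 23.5% of elements nearer to BIRC3. The subunits NFKB1 and RELA were at 3.98, and 53.1% of elements lay nearer to NFKB1 than RELA did. CASP4 and SIVA1 were at 5.82, with 97.9% of elements nearer to CASP4.

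Only 8 of the 444 named genes were on the pathway lists, and none of the named genes nearest to the 6 was among them. For NFKB1 the nearest genes were the lysosomal membrane protein LAPTM5 at 1.61 and the endosomal syntaxin STX7 at 2.08, farther than those of the other 5. For RELA they were SSBP4 at 0.547 and EHBP1L1 at 0.605, and for BIRC3 C25H7orf50 at 0.416 and the nucleotide hydrolase NUDT2 at 0.463. For NFKBIE they were the GDP-mannose dehydratase GMDS at 0.38 and the palmitoyltransferase ZDHHC19 at 0.568. For CASP4 they were the SLAM-family receptor CD84 at 0.317 and the CD45-associated protein PTPRCAP at 0.658, both of leukocytes. For SIVA1 they were the torsin TOR1B at 0.559 and NDRG1 at 1.07. These distances rest on 4 arrays, of which array A is the one on which 5 of the 6 genes were farthest out.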

How the data were processed

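The deposited values are log10 ratios of the 2 channels, 1 per spot and array; 10 raised to them falls on steps of 0.0001 for 99.8% to 100% of values (within 2% of a step), against 3.52% to 3.99% if read as log2. How the authors corrected background or normalised, and which channel is the numerator, was not found in the sources used here. No intensity was used. Precision is limited by there being 4 arrays. Values were converted to log2, the 3 spots of each of 1296 elements averaged, and each array centred on its median element. Names came from the platform annotation, and 485 of 486 elements naming 1 gene matched the current bovine table (ARS-UCD2.0) by gene ID.

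Differences between pools were fitted over 1295 elements with limma 3.58.1 in R 4.3.3 (1 residual degree of freedom per element, with 10.9 added by moderation), and adjusted by Benjamini-Hochberg over all of them. One array at a time was tested with limma over spots, for elements with at least 2. Figures used matplotlib 3.10.9. The 6 genes, the 2 pathway lists and the cell markers were chosen with earlier results of these data known. Genes named beyond these were the 2 with the smallest distance to each of the 6. Alternatives were no centring, the median of spots, weights, scaling, spots as replicates, a running median, and leaving out or turning each array.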

Additional observations from a re-analysis of the deposited data

How the results depend on the processing

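None of the 6 genes passed in the loop fit for any pair of pools under the alternatives run, apart from day 0.25 against day -7. There 2 passed (RELA and CASP4) with spots as replicates and 3 (RELA, CASP4 and SIVA1) with array B turned. Over the spots of array C the count of 3 became 0 with any 1 spot left out, which leaves 2 spots to an element. For the whole array, 26 elements passed for day 0.25 against day -7, and 47 with spots as replicates, 84 with array B turned, 7 with arrays scaled, and 0 with weights, without centring, with a running median or with array A, C or D turned. For the F test 7 elements became 0 to 46, for day 0 against day -7 4 became 0 to 9, for day 1 against day -7 4 became 0 to 31, and for day 1 against day 0 none became 1 with array B turned. Leaving out an array leaves no error to test with. Over the spots of array B, 1 became 0 with a spot left out. Over those of array C, 547 became 317 with a running median and 0 with a spot left out.

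The 18 differences from day -7 changed sign in 39 of 252 refits; apart from changes that turning or removing an array makes by construction, the cause was not tested. With array A turned, the differences for day 0, day 0.25 and day 1 were 0.0596, 0.0989 and 0.0234 for CASP4, 0.027, 0.045 and 0.00766 for BIRC3, and -0.0745, -0.0994 and -0.0351 for SIVA1. For day 0 and day 0.25 they were 0.0309 and 0.0572 for RELA and -0.0536 and -0.0659 for NFKBIE, and NFKB1 had 0.0895 for day 0.25. With array C turned, NFKB1 had -0.0754 for day 0 and -0.0946 for day 1, RELA 0.00232 for day 1 and NFKBIE 0.0384 for day 1. With array B turned, NFKB1 had -0.00248 for day 0.

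Without array A, NFKB1 had 0.109, NFKBIE -0.0209 and SIVA1 -0.0071 for day 0.25, and NFKBIE -0.0235 and SIVA1 -0.013 for day 0, which leaving out array D gave too. SIVA1 had -0.00434 for day 1 without A, B or D. Without array C, NFKB1 had -0.0779 for day 0, as without B, and -0.0984 for day 1, and NFKBIE had 0.0759 for day 1. With weights NFKB1 had 0.0262 for day 0.25. NFKBIE for day 1, near 0 as reported, had 0.00214 without centring, 0.0032 with weights, 0.00622 with a running median, and 0.000758 and 0.000903 with arrays B and D turned.

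Among single ratios, a running median turned CASP4 on array B (-0.000918), SIVA1 on array C (-0.0146) and BIRC3 on array D (-0.000646). Ratios whose sign depended on 1 spot were, on array B, NFKBIE (-0.00646 to 0.0028), BIRC3 (-0.0043 to 0.00797) and CASP4 (-0.000514 to 0.000786), on array C SIVA1 (-0.0219 to 0.0176), and on array D NFKB1 (-0.00328 to 0.0159), BIRC3 (-0.00295 to 0.00699) and SIVA1 (-0.0145 to 0.0057). The promoter motif search was not run, since no promoter sequence was used here.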
